A study of Mus musculus with 8 samples.

Results

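Peroxiredoxins are thiol peroxidases that reduce hydrogen peroxide and organic hydroperoxides with a reactive cysteine, and sulfiredoxin is the enzyme that repairs some of them. The group described here holds Srxn1 and the peroxiredoxin genes Prdx1, Prdx2, Prdx3, Prdx4, Prdx5 and Prdx6, 7 genes in all, and its members are the probe sets that the array annotation pairs with one of them. By that rule 10 of the 22690 probe sets on the array belonged to the group, 4 for Srxn1, 2 for Prdx2, 1 for Prdx3 and 3 for Prdx4. The annotation pairs another 5 probe sets with both Prdx1 and Gm21399, which RefSeq lists as a pseudogene, and these are described separately as shared probe sets. Prdx5 and Prdx6 are not analysed here, because the annotation used names no probe set for them.

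Liver RNA was measured on 1 Affymetrix array per animal in 4 TrxR1/Gsr-null and 4 WT mice, all female, 4 weeks old and on the C57BL/6J background. Txnrd1 encodes TrxR1, the thioredoxin reductase of the cytosol, and Gsr encodes the reductase of glutathione. The title of the series names the Nrf2 response, and the comparison of the genotypes asks how the livers respond to the loss of both reductases. The labels give neither the alleles nor the liver cells in which each gene was lost. In RNA of whole liver fewer cells of a type and less RNA per cell cannot be told apart.

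In the catalytic cycle of a peroxiredoxin, peroxide oxidizes the reactive cysteine to a sulfenic acid, a disulfide forms, and thioredoxin reduces it with electrons that thioredoxin reductase takes from NADPH. When peroxide is plentiful, the cysteine of Prdx1, Prdx2, Prdx3 or Prdx4 can be oxidized further to a sulfinic acid, which inactivates the peroxidase, and sulfiredoxin reverses that step at the cost of ATP. Prdx1 and Prdx2 are cytosolic, Prdx3 is mitochondrial and Prdx4 acts in the endoplasmic reticulum and is secreted. Nrf2 binds antioxidant response elements in DNA together with small Maf proteins, and Srxn1 and Prdx1 are among its known targets.

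The sequences before the start sites are shown for Srxn1, the member that differed most, for Prdx1, a known Nrf2 target, and for Prdx3, the peroxiredoxin gene that was called higher. Each is the 250 bases before the annotated start, 5′ to 3′ on the gene's strand, from RefSeq in the build GRCm38.p6. Capitals mark matches, on either strand, to TGACNNNGC, the core of the antioxidant response element, or to TGACTCA, the shorter element that AP-1 and Nrf2 dimers can share; a stretch can match both. The region of Srxn1 is chr2:152105274-152105523 on the plus strand, that of Prdx1 is chr4:116685349-116685598 on the plus strand and that of Prdx3 is chr19:60874539-60874788 on the minus strand.
Srxn1: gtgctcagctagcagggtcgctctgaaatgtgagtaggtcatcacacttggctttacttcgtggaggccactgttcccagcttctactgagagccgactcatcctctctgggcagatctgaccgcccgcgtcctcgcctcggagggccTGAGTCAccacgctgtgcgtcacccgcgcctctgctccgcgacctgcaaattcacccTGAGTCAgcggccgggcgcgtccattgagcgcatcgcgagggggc
Prdx1: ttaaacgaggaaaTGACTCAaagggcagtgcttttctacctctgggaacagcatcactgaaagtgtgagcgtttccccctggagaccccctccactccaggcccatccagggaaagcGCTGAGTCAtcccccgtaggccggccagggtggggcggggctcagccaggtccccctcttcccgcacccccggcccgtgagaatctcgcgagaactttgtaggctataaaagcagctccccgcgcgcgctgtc
Prdx3: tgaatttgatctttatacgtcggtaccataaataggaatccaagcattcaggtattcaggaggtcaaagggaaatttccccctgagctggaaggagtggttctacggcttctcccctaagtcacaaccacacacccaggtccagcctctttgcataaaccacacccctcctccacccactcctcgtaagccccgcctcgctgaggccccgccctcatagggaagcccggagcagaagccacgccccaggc

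The Srxn1 window held TGACTCA in 2 places, both as TGAGTCA on the printed strand, at 102 to 96 and at 45 to 39 bases before the start. The Prdx1 window held TGACTCA in 2 places, at 237 to 231 and at 131 to 125 bases before the start. The second of these lies within GCTGAGTCA, the only match to TGACNNNGC on either strand among the members' windows. In the Srxn1 window the stretch nearer the start is followed by GC, as TGAGTCAGC. That has TGAG in place of TGAC, so it was not counted as a match to TGACNNNGC. RefSeq windows were found for 6 of the 7 genes, and those of Prdx2, Prdx3, Prdx4 and Prdx5 matched neither motif. The Prdx4 window, chrX:155338461-155338710 on the minus strand, lies inside the gene's annotated span, which ends at 155342272. It therefore does not cover the bases before the outermost end of Prdx4. Among all 32851 windows of the same length, 4.46% held TGACTCA, 10.2% held TGACNNNGC and 13.9% held at least one of them. A match describes the letters in the window and says nothing of binding in these livers.

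Srxn1 RNA was far more abundant in TrxR1/Gsr-null liver, Prdx3 was moderately higher, and Prdx4 was not called. Of the 2 probe sets of Prdx2, the dimmer was called lower and the brighter was not called. A gene was called where its limma p, adjusted by the Benjamini-Hochberg method over all 7534 genes tested, was below 0.05. Of the 4 member genes with a probe set of their own, which all passed the filter on low values, 2 were called higher and 0 lower, with 2 and 0 at an unadjusted p below 0.05. Over all genes tested 4.47% were called higher and 2.15% lower. Over all 22626 probe sets other than controls, with no filter, 2.09% were called higher and 0.888% lower, 2.97% in all, and of the 10 member probe sets 5 were called higher and 1 lower. The groups did not overlap at 7 of the 10, with the null livers above at 6 and below at 1. Of all probe sets 11.2% had no overlap, 6.83% with the null livers above and 4.37% below. The 4 probe sets of Srxn1 are among the 5 called higher and among the 6 with the null livers above. They read 1 gene, so these counts do not describe 10 separate genes. At the gene level 3 of the 4 member genes had no overlap, against 16.6% of all genes. A value below 3.38, the limit under which the dimmest 40% of genes lay, is called low here.

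**Figure D1:**
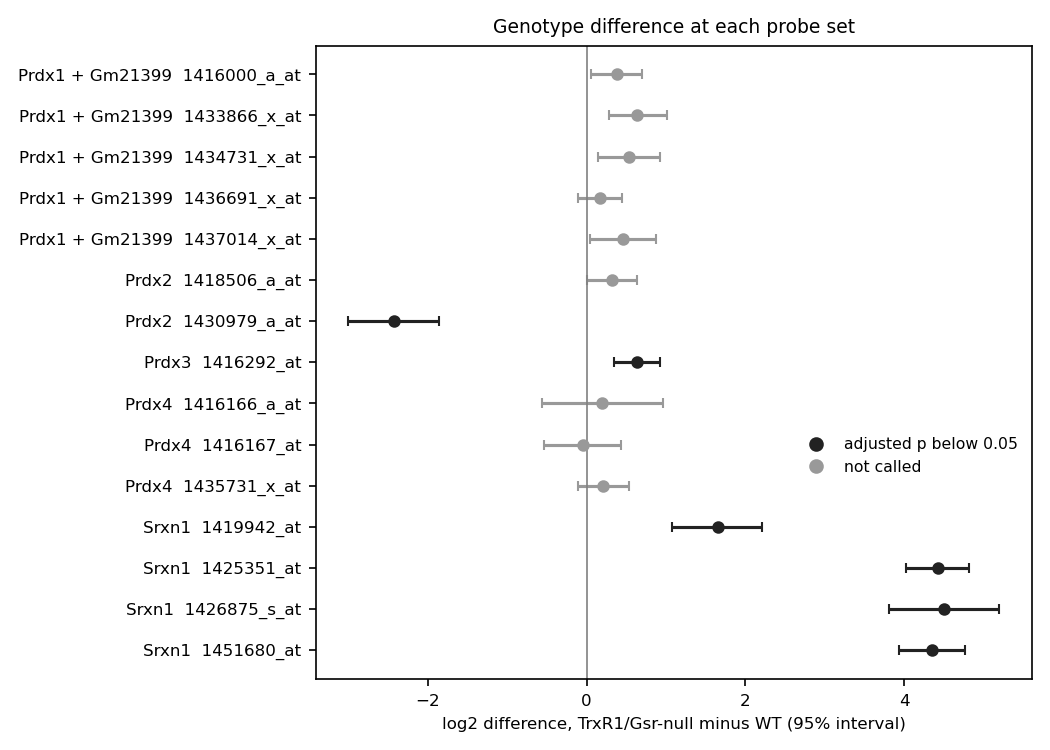
Difference in log2 expression, TrxR1/Gsr-null minus WT, at each of the 10 member probe sets and the 5 shared ones, with 95% intervals from limma; black points have an adjusted p below 0.05 over all probe sets. The Srxn1 points lie at 1.65 to 4.50, the points of Prdx2 lie on opposite sides of 0, and the shared points lie between 0.17 and 0.64 without being called.

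Sulfiredoxin came first among the members in size of change. At its brightest probe set, 1426875_s_at, Srxn1 had log2 values of 12.03, 11.45, 11.00 and 11.38 in the TrxR1/Gsr-null livers, against 7.58, 7.24, 6.80 and 6.23 in the WT livers. The lowest null liver stood more than 3 log2 units above the highest WT liver. The means were 11.47 ± 0.43 in null and 6.96 ± 0.58 in WT livers (SD, n = 4 each), a log2 difference of 4.50 ± 0.31 (SE) and 22.7-fold, with a limma adjusted p of 3.98e-05.

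Of the other 3 Srxn1 probe sets, 2 gave nearly the same size. Probe set 1451680_at read 7.87, 7.35, 7.98 and 8.07 in null livers, against 3.70, 3.32, 3.51 and 3.35 in WT livers, 20.4-fold higher with a limma adjusted p of 7.26e-06 over all probe sets. Probe set 1425351_at read 6.91, 6.49, 6.88 and 7.16 in null livers, against 2.49, 2.16, 2.61 and 2.49 in WT livers, 21.5-fold higher with a limma adjusted p of 6.26e-06. The groups were far apart at both, and all 4 WT values of 1425351_at and 2 of 1451680_at were low.

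Probe set 1419942_at gave a smaller difference for Srxn1. It read 5.58, 5.10, 4.60 and 5.08 in null livers, against 2.88, 3.48, 3.61 and 3.79 in WT livers, a log2 difference of 1.65 ± 0.25 (SE) and 3.13-fold, with a limma adjusted p of 0.00855. The groups again did not overlap, and 1 WT value was low. Within replicates 3 and 4 alone its log2 difference was 1.14 and the limma adjusted p was 0.097. The mean of all 4 probe sets of Srxn1 gave a log2 difference of 3.73.

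**Figure D2:**
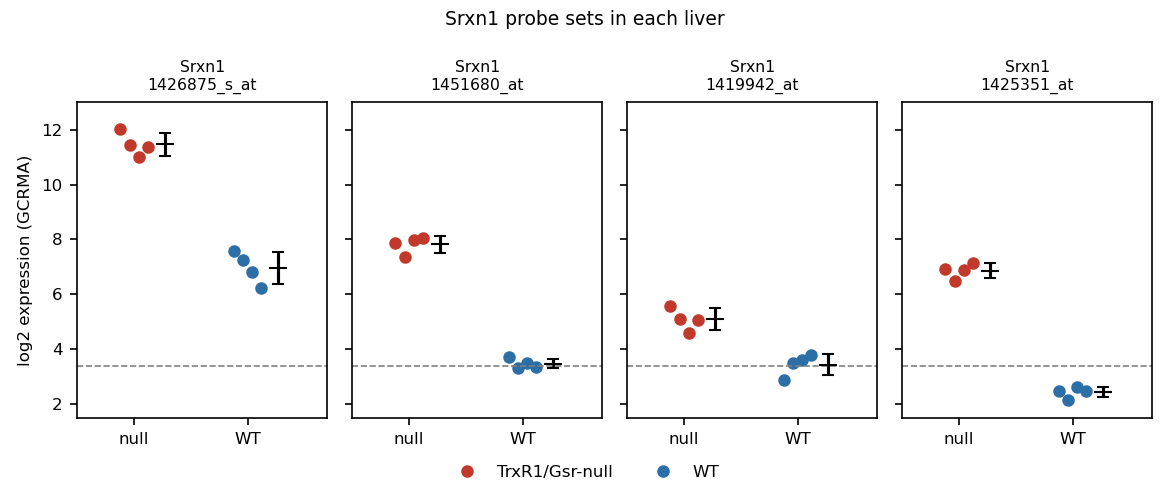
Log2 expression of the 4 Srxn1 probe sets in each of the 4 TrxR1/Gsr-null (red) and 4 WT (blue) livers, with mean and SD in black and the low-value limit of 3.38 as a dashed line. All null values lie above all WT values at each probe set, and the step is smallest at 1419942_at.

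The difference in Srxn1 held when arrays or settings were changed. Its log2 difference lay between 3.73 and 4.71 in the 21 alternatives run, with limma adjusted p from 1.82e-06 to 0.00444. Within replicates 1 and 2 of both genotypes it was 4.33, and within replicates 3 and 4 it was 4.67.

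Among genes that passed the filter, those whose log2 values over the 8 arrays correlated best with Srxn1 were Strbp, an RNA-binding protein (Pearson r = 0.997), Gsta2, a glutathione transferase (r = 0.996), Txnrd1 (r = 0.994), Cd36, a fatty acid receptor (r = 0.990), and Aox1, an aldehyde oxidase (r = 0.987). These are descriptions over 8 arrays that form 2 separate groups, so a gene with a large and even genotype difference will score high. All 5 were called higher themselves. The log2 differences were 1.60 for Strbp, 3.29 for Gsta2, 2.11 for Txnrd1, 2.89 for Cd36 and 4.04 for Aox1. Txnrd1 is itself a targeted gene.

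Prdx3, the mitochondrial peroxiredoxin, had 1 probe set and was higher in null livers by a modest amount. Probe set 1416292_at read 10.85, 11.06, 11.10 and 11.04 in TrxR1/Gsr-null livers, against 10.44, 10.31, 10.39 and 10.35 in WT livers. The groups did not overlap, and the values varied little within each, with SDs of 0.11 in null and 0.06 in WT livers (n = 4 each). The log2 difference was 0.64 ± 0.13 (SE), 1.55-fold, with a limma adjusted p of 0.0381 over genes and 0.0286 over all probe sets.

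The size of the Prdx3 difference was stable, between 0.57 and 0.70 in the 21 alternatives, but its call was kept in only 8 of them. The adjusted p over genes was 0.0552 with the replicate number as a block, 0.0643 with each array centred on its median and 0.0958 without WT replicates 3 and 4. With any 1 of the 8 arrays left out it was 0.0597 to 0.12. The genes most correlated with Prdx3 over the 8 arrays were Hax1, a mitochondrial protein linked to cell survival (r = 0.992), Ugdh, which makes UDP-glucuronate (r = 0.983), and Hfe, a regulator of iron uptake (r = 0.983).

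Mitochondrial thioredoxin and its reductase, which pass electrons to Prdx3, were not called. Txn2, the mitochondrial thioredoxin, averaged 8.17 in null and 8.63 in WT livers (limma adjusted p = 0.163), and Txnrd2, the mitochondrial thioredoxin reductase, averaged 6.40 in null and 6.88 in WT livers (limma adjusted p = 0.457). The log2 differences, -0.46 for Txn2 and -0.48 for Txnrd2, had the opposite sign to that of Prdx3. With array weights Txn2 was called lower (limma adjusted p = 0.0458). The Txnrd2 difference ran from -1.14 to 0.05 over 21 alternatives, with limma adjusted p from 0.0257 to 0.936. Among the electron donors described below, Nnt, which is also mitochondrial, was called higher (log2 difference 1.17, limma adjusted p = 0.0111). Sod2, the mitochondrial superoxide dismutase, averaged 11.22 in null and 11.25 in WT livers (limma adjusted p = 0.943).

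Prdx2, a cytosolic peroxiredoxin that is also abundant in red blood cells, was measured by 2 probe sets whose differences had opposite signs, and 1 of them was called. The brighter, 1418506_a_at, read 10.54, 10.54, 10.34 and 10.38 in null livers, against 10.28, 10.25, 10.00 and 9.99 in WT livers. The null values were all slightly higher, by 0.32 ± 0.14 on the log2 scale (SE), with a 95% interval of 0.01 to 0.63. This difference was not called (limma adjusted p = 0.285 over genes), nor was it in any of 18 alternatives at the probe set.

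The dimmer Prdx2 probe set, 1430979_a_at, read 2.62, 2.49, 2.58 and 2.14 in null livers, against 5.37, 5.06, 4.98 and 4.13 in WT livers. All 4 null values were low and all 4 WT values were above the limit. The probe set fell by 2.43 on the log2 scale (SE 0.25), 5.39-fold lower in null livers, with a limma adjusted p of 0.00126 over all probe sets. The call held whichever single array was omitted, with log2 differences of -2.68 to -2.27, and within replicates 3 and 4 alone the adjusted p was 0.0568.

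Of 4956 genes with more than 1 probe set of their own, 10 (0.202%) had probe sets without overlap in opposite directions, Prdx2 among them. The gene's value depends on the choice of probe set. With the mean of both, Prdx2 was called lower (log2 difference -1.06, limma adjusted p = 0.00808). The files do not say which transcripts each probe set detects.

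Red cell markers are given beside Prdx2 because of its abundance there. Of 10 erythroid markers 5 had a probe set of their own, and probe sets paired with several genes were not used. The mean log2 value of the 5 was 3.03 to 3.66 in null livers and 3.29 to 3.56 in WT livers. Alas2, the erythroid heme synthesis enzyme, was the only one above the low-value limit on every array, at 5.84 to 7.09 in null and 6.18 to 7.17 in WT livers. The ranges of the list's mean overlapped. Slc4a1, the red cell anion exchanger, was above the limit on 5 arrays, at 3.19 to 4.83 in null and 3.20 to 3.74 in WT livers. Hba-a1, an alpha globin, was low on all arrays, at 1.98 to 2.19 in null and 2.21 to 2.36 in WT livers, without overlap. Epb42, a red cell membrane protein, was above the limit on 1 array, at 2.37 to 2.53 in null and 2.54 to 3.61 in WT livers, also without overlap, and Rhag was low on all arrays with overlapping ranges. The part of red cells in the Prdx2 values was not tested, and markers that read below the limit cannot measure it.

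Prdx4, the peroxiredoxin of the endoplasmic reticulum, was not called at any of its 3 probe sets, and the groups overlapped at each. The brightest, 1416167_at, read 11.05, 11.01, 11.89 and 11.40 in null livers, against 11.39, 11.15, 11.35 and 11.66 in WT livers. The log2 difference was -0.05, with a 95% interval of -0.53 to 0.43 and a limma adjusted p of 0.931 over genes. The interval holds changes in either direction.

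The second Prdx4 probe set, 1416166_a_at, read 10.41, 9.77, 9.40 and 9.14 in null livers, against 9.60, 10.07, 9.58 and 8.68 in WT livers, a log2 difference of 0.20 with an interval of -0.56 to 0.96. The third, 1435731_x_at, read 5.10, 4.95, 4.97 and 5.01 in null livers, against 4.74, 4.82, 5.07 and 4.57 in WT livers, a log2 difference of 0.21 with an interval of -0.11 to 0.53. The spread within a genotype was widest at 1416166_a_at, where the SD was 0.55 in null and 0.58 in WT livers.

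**Figure D3:**
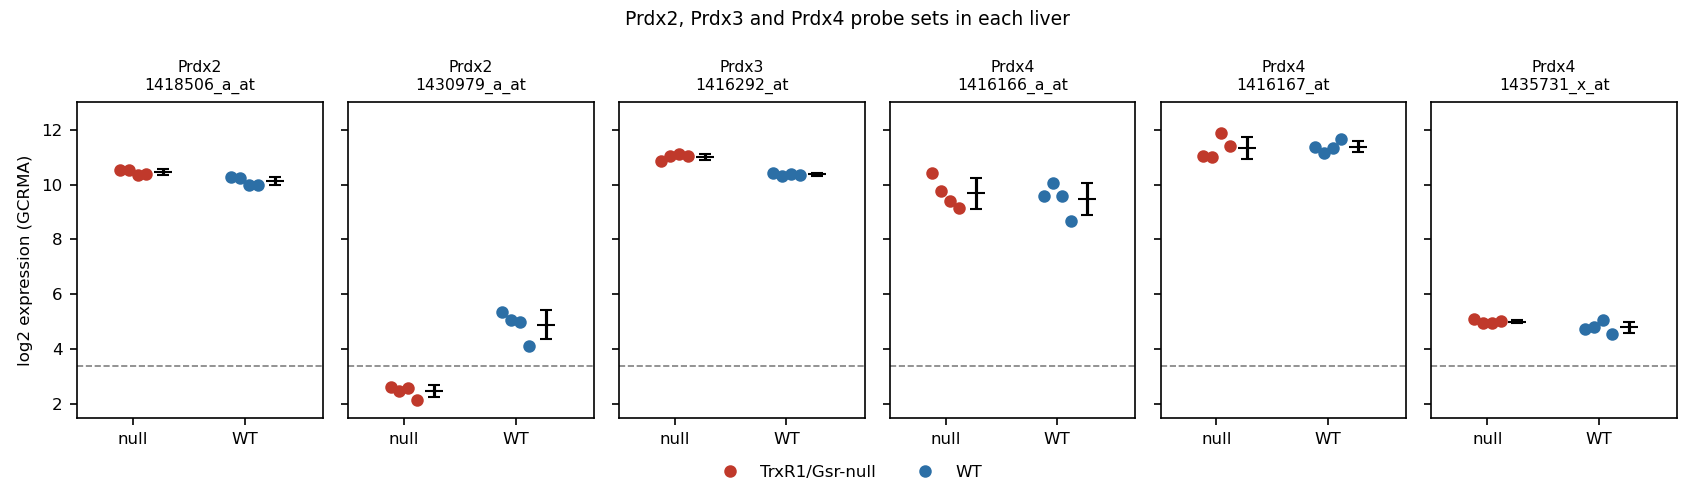
Log2 expression of the Prdx2, Prdx3 and Prdx4 probe sets in each of the 4 TrxR1/Gsr-null (red) and 4 WT (blue) livers, with mean and SD in black and the low-value limit of 3.38 as a dashed line. Null values lie above WT values at Prdx3 and the brighter Prdx2 probe set, below them at 1430979_a_at, and among them at all 3 Prdx4 probe sets.

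The 5 probe sets shared by Prdx1 and Gm21399 all read higher on average in null livers, and none was called. Prdx1, a cytosolic peroxiredoxin, and its copy cannot be told apart in these values. Probe set 1416000_a_at, which the annotation ties to a RefSeq messenger RNA, read 13.43, 13.50, 13.69 and 13.49 in null livers, against 13.03, 12.95, 13.34 and 13.26 in WT livers, a log2 difference of 0.38 ± 0.14 (SE) with a limma adjusted p of 0.231. The largest difference was at 1433866_x_at, which read 12.70, 12.37, 12.31 and 12.38 in null livers, against 11.76, 11.88, 12.04 and 11.51 in WT livers, 1.56-fold higher with a limma adjusted p of 0.0727.

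The other 3 shared probe sets had log2 differences of 0.54 at 1434731_x_at, 0.17 at 1436691_x_at and 0.46 at 1437014_x_at. Groups were without overlap at 4 of the 5 shared probe sets, all with the null livers above, against 6.83% of all probe sets. By limma 0 of the 5 were called while 4 had an unadjusted p below 0.05. The share of all probe sets at that unadjusted p is not given here. The exception to the separation was 1434731_x_at. With array weights 3 of the 5 passed the threshold, 1416000_a_at (adjusted p = 0.0394), 1433866_x_at (adjusted p = 0.0201) and 1434731_x_at (adjusted p = 0.0409). The 5 share a target, so they are not 5 separate measurements of a gene.

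**Figure D4:**
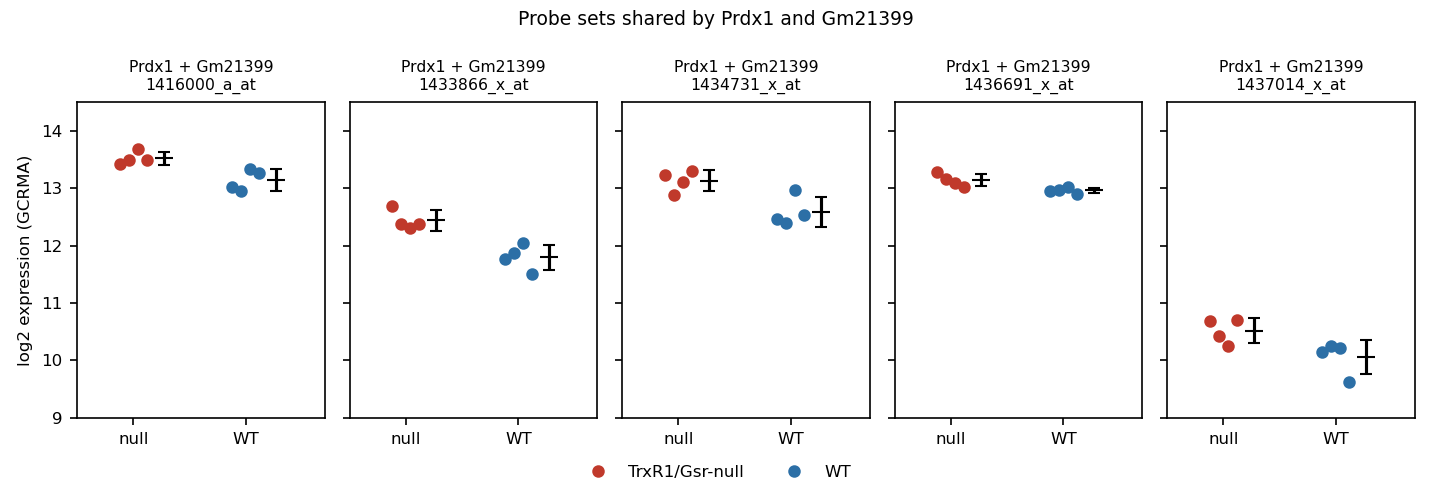
Log2 expression of the 5 probe sets paired with both Prdx1 and Gm21399 in each of the 4 TrxR1/Gsr-null (red) and 4 WT (blue) livers, with mean and SD in black; the axis starts at 9. Null means lie 0.17 to 0.64 above WT means, and WT replicate 4 is the lowest value at 1437014_x_at.

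Around the peroxiredoxins, the genes of 6 lists were counted in the same fit, where 6.62% of all genes were called and the median log2 difference of all genes was 0.096. Among enzymes and proteins that pass electrons to peroxiredoxins or control that transfer, 12 of 13 genes were tested, 2 were called higher and 2 lower, with a median log2 difference of 0.33. With the replicate number as a block, 3 were called higher and 2 lower, and with array weights 5 higher and 3 lower. The higher ones were Txnrd1, itself a targeted gene, and Nnt. Txnrd1 RNA rose 4.31-fold at its brightest probe set (log2 difference 2.11, limma adjusted p = 0.000115). Nnt, a gene for an enzyme that can make mitochondrial NADPH, read 2.26-fold higher in null livers (limma adjusted p = 0.0111). The labels do not give the Nnt alleles of either group, and the source of this difference was not tested. The Nnt call was lost in 1 of 21 alternatives, within replicates 3 and 4 (limma adjusted p = 0.18). Its RNA says nothing of the activity of the enzyme or of the supply of NADPH, which were not measured. With the mean of all its probe sets the log2 difference of Txnrd1 was 0.78 (limma adjusted p = 0.0056). The lower ones were the targeted Gsr, which averaged 6.01 in null and 7.16 in WT livers (limma adjusted p = 0.00397), and Txnip, which binds and inhibits thioredoxin, at 8.38 in null and 9.30 in WT livers (limma adjusted p = 0.0369). A probe set outside the deleted part of Txnrd1 or Gsr checks no label, and which parts were deleted is not stated in the labels. Cytosolic thioredoxin, Txn1, averaged 12.38 in null and 11.97 in WT livers and was not called (limma adjusted p = 0.146). The Txnip call was lost in 9 of 21 alternatives, with adjusted p up to 0.17.

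Of the other enzymes that remove peroxides, 6 of 7 were tested, 3 were called higher and 0 lower, with 0 lower at an unadjusted p below 0.05 and a median log2 difference of 0.71. The 3 were glutathione peroxidases: Gpx2 rose 52.1-fold, Gpx3 rose 3.73-fold and Gpx4, which reduces lipid peroxides, rose 2.14-fold. The WT mean of Gpx2, 3.31, is low, so Gpx2 passed the filter through the null livers. Its fold rests on that low value. The Gpx3 call was lost in 8 of 20 alternatives, with adjusted p up to 0.129. Catalase, Cat, averaged 13.28 in null and 12.99 in WT livers (limma adjusted p = 0.371), and Gpx1 averaged 13.09 in null and 13.26 in WT livers (limma adjusted p = 0.558).

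Enzymes that make peroxide were called in both directions, with 2 of 13 tested genes higher and 3 lower and a median log2 difference of -0.13. Aox1 rose 16.4-fold and Acox2, a peroxisomal oxidase of bile acid precursors, 2.03-fold. Uox, the urate oxidase, fell 1.95-fold, Xdh, the xanthine dehydrogenase, 2.78-fold, and Sod3, the extracellular superoxide dismutase, 2.87-fold. The Sod3 call was lost in 11 of 21 alternatives, with adjusted p up to 0.169. Sod1, the cytosolic superoxide dismutase, averaged 12.59 in both genotypes (limma adjusted p = 0.998).

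The partners of Prdx4 in oxidative protein folding were mostly uncalled, as Prdx4 was. Of 11 tested genes 0 were called higher and 1 lower, with 0 higher at an unadjusted p below 0.05 and a median log2 difference of -0.13. Qsox1, a sulfhydryl oxidase, was 1.60-fold lower, a call lost in 12 of 21 alternatives with adjusted p up to 0.239. The disulfide isomerase P4hb averaged 12.02 in null and 12.16 in WT livers, Pdia3 10.89 in null and 10.91 in WT livers, and Pdia4 9.03 in null and 9.14 in WT livers.

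Of sestrins and signalling proteins that peroxiredoxins or thioredoxin bind, 6 were tested and limma called 0, with 0 higher and 1 lower at an unadjusted p below 0.05. The sestrin Sesn1 averaged 6.54 in null and 7.16 in WT livers (limma adjusted p = 0.103), Sesn2 averaged 4.29 in null and 3.88 in WT livers, and Sesn3 averaged 7.48 in null and 7.67 in WT livers. Of known Nrf2 targets other than the members, 28 of 32 were tested, and limma called 21 higher and 0 lower. At an unadjusted p below 0.05, 0 were lower, and the median log2 difference was 1.82. The 21 include Txnrd1, itself a targeted gene, and Gpx2, which passed the filter through the null livers. The log2 difference of Srxn1, 4.50, stood beside 8.08 for Cbr3, a carbonyl reductase, 5.70 for Gpx2, 4.59 for Nqo1, a quinone reductase, and 4.04 for Aox1. Hmox1, the inducible heme oxygenase, averaged 5.26 in null and 3.81 in WT livers and was not called (limma adjusted p = 0.314). Of the tested genes, Txnrd1, Gpx2, Aox1, Gpx7 and Gstp1 each stand on 2 of the lists, as does Gpx8, which was not tested.

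**Figure D5:**
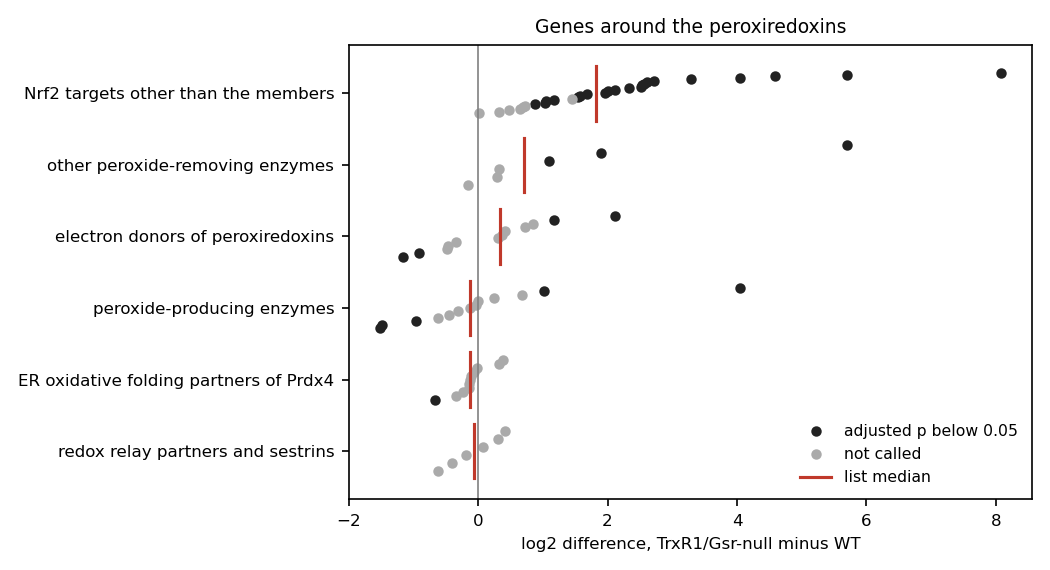
Log2 difference, TrxR1/Gsr-null minus WT, of each tested gene in the 6 lists; black points have an adjusted p below 0.05 over all 7534 genes, grey points do not, and red lines are list medians. The medians run from -0.13 for folding partners and peroxide-producing enzymes to 1.82 for Nrf2 targets.

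The arrays were not alike in distribution or in cell markers. The interquartile range was 3.97 and 3.74 log2 units on WT replicates 3 and 4, against 4.31 to 4.44 on the other 6 arrays. The 3′ minus 5′ log2 signal of Actb, a sign of RNA quality, was 1.76 on null replicate 3 and up to 1.57 on WT replicates 3 and 4, all of them above the 1.01 to 1.17 of the other 5 arrays. Its part in the differences was not tested. The 6 hepatocyte markers averaged 12.51 to 13.06 in null livers and 13.12 to 13.36 in WT livers, without overlap, and their part in the differences above was not tested. None of the 6 was called, with 0 higher and 1 lower at an unadjusted p below 0.05 by limma. The 8 Kupffer cell and macrophage markers averaged 7.97 to 8.55 in null and 8.28 to 8.98 in WT livers, the 6 endothelial markers 6.31 to 6.64 in null and 6.33 to 7.05 in WT livers, and the 6 stellate cell markers 5.32 to 6.23 in null and 5.80 to 6.35 in WT livers. On these 3 lists 0 genes were called. At an unadjusted limma p below 0.05, 3 Kupffer cell and macrophage markers, 1 endothelial and 1 stellate cell marker were lower and 0 higher. Without overlap, null livers below, were 2, 1 and 1 of them. Lymphocyte markers averaged 2.61 to 2.82 in null and 2.58 to 2.97 in WT livers, and bile duct markers 3.04 to 3.40 in null and 2.71 to 3.45 in WT livers. Of the 2 bile duct markers that passed the filter, Epcam, an epithelial adhesion protein, was called higher, at 3.87 in null and 2.93 in WT livers (limma adjusted p = 0.041). That call was lost in 9 of 19 alternatives, with adjusted p up to 0.177, among them the fit without a filter on low values. Its WT values, 2.51 to 3.31, were all low, and its null values were 3.36 to 4.11. It was above the limit on 3 arrays, so it passed the filter only through the null livers. A further quantile normalization moved the median log2 difference of all genes to -0.01 and the counts to 314 higher and 271 lower, against 337 higher and 162 lower as reported, and no member probe set changed direction under it or under median centring.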

How the data were processed

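The authors deposited log2 values for every probe set on each of 8 arrays. They used GCRMA per the submitters' processing notes, and the range of the values, 0.53 to 14.6, is how the scale was recognised. GCRMA usually corrects background by probe sequence and quantile-normalizes arrays. No source used here states its version or settings. An array gives no sampling depth, so 4 arrays per group limit the precision.

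Of 22690 probe sets 64 are controls, 20380 are paired with 1 gene symbol, 1555 with no symbol and 691 with more than 1. Current symbols were taken by identifier from a RefSeq table of GRCm38.p6. Per gene the brightest probe set over all arrays was kept (those ending in _x_at only where no other existed), and genes in the lowest 40% were dropped unless 4 or more arrays lay above the limit, leaving 7534. The genotype comparison used lmFit and eBayes of limma 3.58.1, two-sided, under R 4.3.3. Every probe set except controls was also fitted without a filter. The fit was tested on simulated data.

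The members, lists and tests were chosen with earlier results of these data known. The text names the members, Txnrd1 and Gsr, up to 4 called genes per list and direction with the smallest adjusted p, the first 3 of a list where uncalled, and the genes most like Srxn1 (5) and Prdx3 (3). Txnrd2 and the single erythroid and bile duct markers fall outside that rule and were named after their values were seen. Alternatives were other filters, the mean of a gene's probe sets, only plain _at sets, quantile normalization, median centring, array weights, a trended and robust prior, replicate blocks, and arrays left out. Motifs were chosen with the sequences in view. Replicate numbers come from the titles. Deviations of same-numbered arrays had correlations of 0.21 to 0.38, all above 0.1, and arrays were treated as paired by number in the blocked alternative. Correlations between arrays of different number are not given here, so these values do not establish a pairing. The labels state none. No 2 arrays were identical (highest correlation 0.994), and the labels name each as a biological replicate.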

Additional observations from a re-analysis of the deposited data

Results flagged for a closer look

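At the shared Prdx1 and Gm21399 probe set 1437014_x_at, WT replicate 4 read 9.63, below the other 3 WT livers, which read 10.15 to 10.25. Its gap to the nearest of them was 0.84 of the group's range, above Dixon's critical value for 4 samples. It was the only such value among the 30 sets of 4 values examined. Chance alone gives about 1 in 20 sets, so 1 among 30 is not above that rate.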

How the results depend on the processing

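The count of member genes called higher was 1 in place of 2, with Srxn1 the one remaining, with median centring, with the replicate block, without WT replicates 3 and 4, within replicates 1 and 2, and within replicates 3 and 4, and it was 1 without any 1 array. Fewer arrays were fitted in the last 4 cases; for the others the cause was not tested. The count called lower was 1 in place of 0 with the mean of all probe sets, by Prdx2 (-1.06), whose probe sets differ; without any 1 array it was 0. The replicate block changed no other member call. With only plain probe sets Prdx2 had none and gave no value. Prdx4, never called, changed sign. Its gene-level difference was 0.12 with the mean of its probe sets, 0.07 without WT replicates 3 and 4, 0.14 within replicates 3 and 4, and -0.23 to 0.06 with 1 array left out. At 1416167_at it was 0.07 without WT replicates 3 and 4, 0.14 within replicates 3 and 4 and -0.23 to 0.06 with 1 array left out. At 1416166_a_at it was -0.01 with array weights, -0.16 without WT replicates 3 and 4 and -0.07 to 0.39 with 1 array left out; the cause was not tested. Of 270 probe set values under alternatives, 243 kept direction and side of the threshold, 13 lost the call, 5 gained it and 9 changed sign. Low values limit the folds of the dimmer Prdx2 and Srxn1 probe sets.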
